A study of Mus musculus with 2 samples.

Results

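The genes described here are the potassium channel genes, taken as every gene row whose symbol begins with Kcn and a lower-case letter, apart from Kcnj8 and Kcnma1. The rule found 85 of the 23521 genes listed, and each of the 85 had at least 1 UMI (unique molecular identifier, 1 captured RNA molecule). They were described in single cells sorted by flow cytometry from the superficial cervical lymphatic system of FVB/N mice of the Prox1-GFP genotype, a reporter in which green fluorescent protein marks cells with Prox1 activity, mainly lymphatic endothelium. The aged group was 1 library pooled from 6 mice of 93 weeks, and the adult group was 1 library pooled from 6 mice of 12 weeks. Strain and reporter were the same in both groups, and no other treatment is given in the labels. Each age was therefore 1 sample: no difference between ages has a replicate check, no test was made, and all 95% intervals below cover counting error only.

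Potassium channels let potassium leave the cell and so hold the membrane potential negative, which in muscle of vessel walls closes voltage-gated calcium channels and lowers tone. The pore is formed by alpha subunits that open with voltage (such as the Kcna, Kcnb, Kcnc, Kcnd, Kcnh and Kcnq genes), with intracellular calcium or sodium (Kcnn and Kcnt genes), with inward rectification (Kcnj genes) or as leak channels (Kcnk genes). Kcng, Kcns and Kcnv subunits form no working pore alone and modify other voltage-gated subunits. Auxiliary subunits (Kcnab, Kcne, Kcnip and Kcnmb genes) set how and where the pores work. In lymphatic vessels the membrane potential of the muscle coat paces the contractions that move lymph.

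The 85 rows were 34 voltage-gated alpha subunits, 7 calcium- or sodium-activated alpha subunits, 14 inward rectifiers, 11 leak channels, 15 auxiliary subunits and interacting proteins, and 4 other rows. These families were set from the gene symbols, and a family name need not describe how each member opens. The other rows were the non-coding RNA Kcnq1ot1, the regulator-like gene Kcnrg and the antisense rows Kcnd3os and Kcnab3os. Under 50 UMIs over all 14300 cells were found for 33 of the 85 rows.

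The aged table held 13969 cells with 1433 to 50077 UMIs each, and the adult table held 7308 cells with 1725 to 37655 UMIs each. Of the aged-table cells, 6977 carried a barcode of the adult table, with a median of 0.506 times the UMIs of the adult cell of that barcode. These were counted once, as adult cells. This left 6992 aged cells, with a median of 11663.5 UMIs against 12087.5 in the adult library. Cells were grouped without use of the potassium channel genes, and the groups were named from fixed markers. Aged and adult libraries held 205 and 255 smooth muscle-like, 38 and 63 pericyte-like, 424 and 627 blood endothelial-like, 83 and 242 lymphatic endothelial-like, and 5285 and 5148 fibroblast-like cells. Another 957 aged and 973 adult cells had no class or were kept apart. The sort and the dissection can set these shares.

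The markers fitted the classes, with markers of other classes present at lower levels. The 7 lymphatic endothelial markers summed to 18470 CPM, the usual scaling of a gene's UMIs to the total UMIs of the class, in aged and 24681 CPM in adult lymphatic endothelial-like cells. Blood endothelial-like cells also carried 1782 CPM of Prox1 in the aged library and 1495 CPM in the adult library, against 13879 and 14322 CPM in aged and adult lymphatic endothelial-like cells. A Prox1 UMI was found in 69.3% of aged and 53.7% of adult blood endothelial-like cells. Prox1 stood at 6.77 and 8.43 CPM in aged and adult fibroblast-like cells. It had 7.7 and 154 CPM in smooth muscle-like and 5.23 and 150 CPM in pericyte-like cells, aged and adult. Whether the Prox1 RNA of blood endothelial-like cells was their own was not tested. The fibroblast gene Dcn stood at 3050 CPM in aged and 3259 CPM in adult smooth muscle-like cells, against 14303 and 15024 CPM in aged and adult fibroblast-like cells. In blood endothelial-like cells it stood at 509 CPM in the aged and 311 CPM in the adult library. The 7 immune markers summed to at most 91.8 CPM in any class. What RNA of other cells adds to the levels below was not tested, except where a value bears on it.

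Promoter sequence is shown for a gene whose UMIs lay nearly all in smooth muscle-like cells and for one whose UMIs lay mainly in arterial-like and venous-like endothelium. Both windows run from 250 bases before to 50 bases after the gene start, on the gene's own strand, in the RefSeq table of build GRCm38.p6. Kcnmb1 lies on the plus strand at chr11:33962763-33963062 and Kcnn4 on the plus strand at chr7:24370013-24370312. Capitals mark a match to GGGCGG on either strand.
Kcnmb1: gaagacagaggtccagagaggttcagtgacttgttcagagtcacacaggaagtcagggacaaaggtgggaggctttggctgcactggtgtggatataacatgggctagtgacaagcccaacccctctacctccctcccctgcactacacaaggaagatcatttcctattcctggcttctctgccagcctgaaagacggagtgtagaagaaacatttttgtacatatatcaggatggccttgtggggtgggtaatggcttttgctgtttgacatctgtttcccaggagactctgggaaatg
Kcnn4: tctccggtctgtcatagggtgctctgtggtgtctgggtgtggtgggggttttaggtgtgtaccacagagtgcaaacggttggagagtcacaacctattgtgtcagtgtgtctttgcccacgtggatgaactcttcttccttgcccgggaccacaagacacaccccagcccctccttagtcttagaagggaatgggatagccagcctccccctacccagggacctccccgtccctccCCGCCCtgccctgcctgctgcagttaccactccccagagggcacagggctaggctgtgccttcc
The Kcnmb1 window had 49.7% G and C and the Kcnn4 window 59.7%. The CArG box, a motif bound by serum response factor in many muscle genes, was searched on both strands and was found in the windows of 0 of the 62 members with a window, against 1.81% of 27025 genes. GGGCGG, the letters of the GC box, was found in the windows of 62.9% of these members and 38.2% of all genes. Among the 17 members with a window that passed the 5 CPM mean set below, it was found in 41.2%, near the share of all genes. TATAAA, the letters of the TATA box, was found in 8.06% of these members and 15.7% of all genes. CAGCTG, an E-box, was found in 27.4% of these members and 18.3% of all genes. TGANTCA, an AP-1 motif, was found in 6.45% of these members and 8.97% of all genes. All were searched on both strands, and the printed windows held none of them apart from the capitals shown.

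A gene was taken as measured at a mean of at least 5 CPM over the 5 classes and both libraries, which 22 of the 85 rows reached, and as led by a class where its CPM there was at least 2-fold that of every other class in both libraries. Of these 22 members, 4 were led by smooth muscle-like cells (background 2.12% of 10984 measured genes), 2 by pericyte-like cells (2.03%), 2 by blood endothelial-like cells (1.84%), 2 by lymphatic endothelial-like cells (1.87%) and 0 by fibroblast-like cells (3.31%). The other 12 members were shared between classes. The measured members were 8 of the 34 voltage-gated subunits, 3 of the 7 calcium- or sodium-activated subunits, 2 of the 14 inward rectifiers, 3 of the 11 leak channels, 4 of the 15 auxiliary subunits and 2 of the 4 other rows. A gene can be measured because of 1 class in which it is high, so these counts describe the list and are no support for a pattern.

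**Figure D1:**
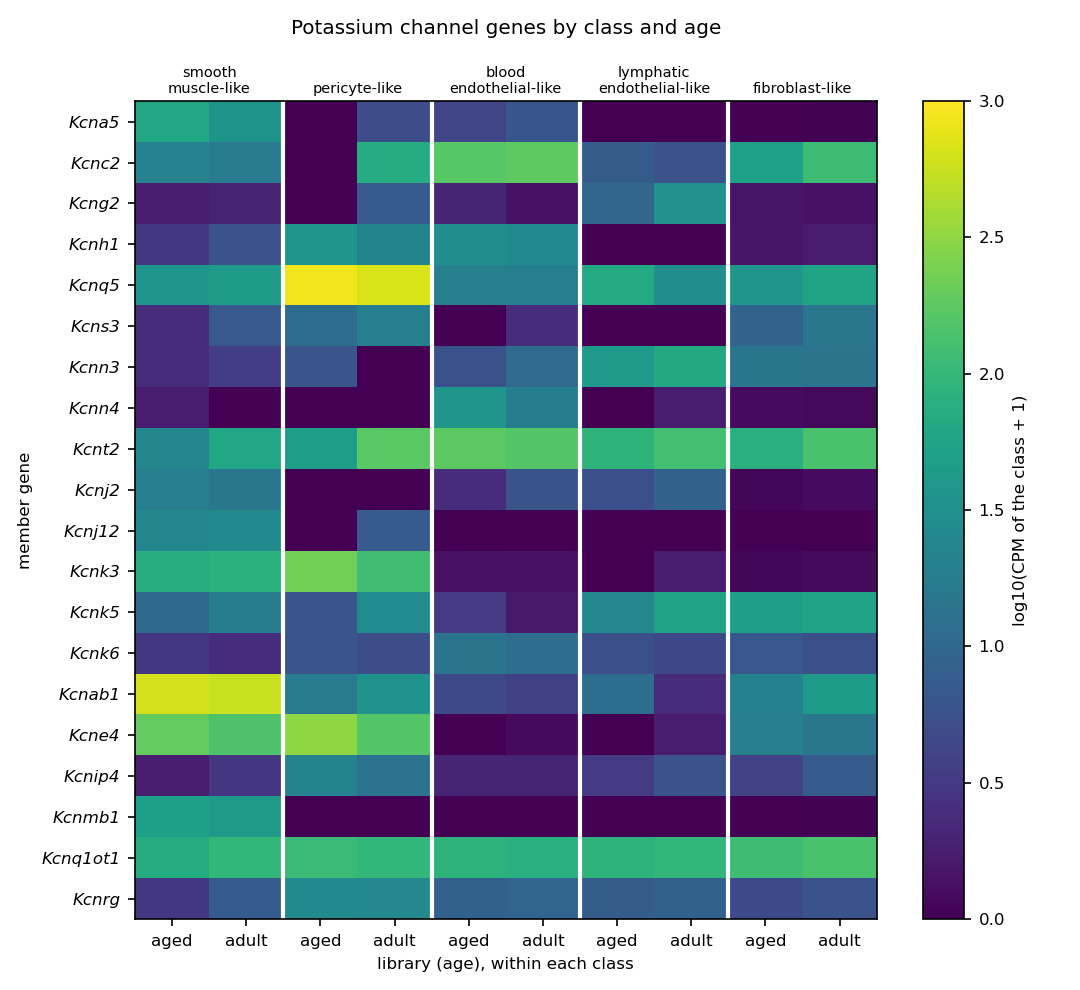
Level of 20 measured members (rows, ordered by family) in each class of the aged and the adult library (columns), as log10 of class CPM plus 1 on a colour scale. Kcnab1 stands out in smooth muscle-like cells and Kcnq5 in pericyte-like cells of both libraries, while Kcnq1ot1 has similar colours in all classes.

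Smooth muscle-like cells led Kcnab1, Kcna5, Kcnmb1 and Kcnj12. Kcnab1, a beta subunit that binds Kv1 channels in the cytoplasm, stood at 642 CPM (602 to 685) in aged and 555 CPM (523 to 588) in adult smooth muscle-like cells. Fibroblast-like cells, next in order, held 19.8 CPM in the aged and 41.9 CPM in the adult library. At equal depth, with every cell thinned to 4000 UMIs, 75.3% of aged and 63.3% of adult smooth muscle-like cells had a Kcnab1 UMI, against 81.5% and 70.2% unthinned. In blood endothelial-like cells the shares were 1.08% in aged and 0.702% in adult cells thinned, and 2.12% and 1.75% unthinned. Thinned shares were 6.12% and 10.4% in aged and adult fibroblast-like cells and 8.0% and 8.93% in pericyte-like cells. In lymphatic endothelial-like cells they were 4.84% in aged and 0.521% in adult cells. The median depths were 5815 and 6417 UMIs in aged and adult smooth muscle-like cells and 6318.5 and 7518 in aged and adult blood endothelial-like cells.

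Kcna5 encodes Kv1.5, a voltage-gated pore that opens as vessel muscle depolarises. It had 60.9 CPM (48.8 to 75.1) in aged and 34.9 CPM (27.2 to 44.0) in adult smooth muscle-like cells. In blood endothelial-like cells it had 3.21 CPM in the aged and 5.36 CPM in the adult library, and it was at 0 in lymphatic endothelial-like cells of both. Over the whole class, a Kcna5 UMI was present in 34.7% of aged smooth muscle-like cells with a Kcnab1 UMI and in 13.2% of those without. In adult cells it was present in 26.3% of those with and 10.5% of those without. Deeper cells show both genes more often, and depth was not held equal in these shares. The shares also mix the groups described below. A Kcnab1 UMI was found in 89.4% of aged and 90.6% of adult cells of the group led by Nrip2, which held nearly all Kcna5 UMIs. In the group led by Actg2 it was found in 26.9% of aged and 21.3% of adult cells. Whether Kcna5 and Kcnab1 go together within a group was not tested.

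Kcnmb1, the beta subunit that makes the large-conductance calcium-activated channel of smooth muscle more sensitive to calcium, had 70 UMIs (49.0 CPM, 38.2 to 61.9) in aged and 84 UMIs (41.2 CPM, 32.9 to 51.1) in adult smooth muscle-like cells. It had 0 UMIs in pericyte-like, blood endothelial-like and lymphatic endothelial-like cells of both libraries, which allows up to 1.07 CPM in aged and 0.618 CPM in adult blood endothelial-like cells. Fibroblast-like cells held 1 UMI in the aged and 2 UMIs in the adult library. Its pore subunit Kcnma1, which is no member of the list, stood at 125 CPM in aged and 215 CPM in adult smooth muscle-like cells with 0 UMIs in pericyte-like and endothelial-like cells.

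Kcnj12, an inward rectifier of the Kir2 family, had 33 UMIs (23.1 CPM, 15.9 to 32.4) in aged and 54 UMIs (26.5 CPM, 19.9 to 34.6) in adult smooth muscle-like cells. Outside them it had 0 UMIs in aged pericyte-like and 3 in adult pericyte-like cells, 0 in both endothelial-like classes and 1 in fibroblast-like cells of each library. In aged pericyte-like cells 0 UMIs allow up to 15.7 CPM, so the 2-fold lead of Kcnj12 over that class is not firm. The adult smooth muscle-like level was 4.25-fold (1.38 to 21.3) that of adult pericyte-like cells. Its relative Kcnj2 had 18.2 CPM in aged and 14.2 CPM in adult smooth muscle-like cells. Lymphatic endothelial-like cells had 4.46 CPM of Kcnj2 in the aged and 7.6 CPM in the adult library, so the gene was not led by 1 class.

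Smooth muscle-like cells fell into a group led by Nrip2, Pln and Myh11 (179 aged and 180 adult cells) and a group led by Actg2, Cnn1 and Grem1 (26 aged and 75 adult cells). Kcnab1 had 720 CPM in aged and 770 CPM in adult cells of the Nrip2 group, against 80.9 and 101 CPM in aged and adult cells of the Actg2 group. All 33 aged and 54 adult Kcnj12 UMIs lay in the Nrip2 group, as did 87 of 87 aged and 70 of 71 adult Kcna5 UMIs. Kcnmb1, Kcnk3 and Kcne4 were present in both: Kcne4, for example, had 187 CPM in aged and 155 CPM in adult cells of the Nrip2 group and 185 and 127 CPM in aged and adult cells of the Actg2 group. Kcnt2 went the other way, with 10.4 CPM in aged and 51.4 CPM in adult cells of the Nrip2 group and 121 and 85.6 CPM in those of the Actg2 group. These groups were found by clustering, so these differences are descriptions.

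Pericyte-like cells led Kcnq5 and Kcnrg. Kcnq5 encodes Kv7.5, a voltage-gated pore that opens near the resting potential and is known in vessel muscle. It had 863 CPM (737 to 1006) in aged and 671 CPM (600 to 748) in adult pericyte-like cells. The other 4 classes held 18.5 to 66.8 CPM. A Kcnq5 UMI was found in 84.2% of the 38 aged and 81.0% of the 63 adult pericyte-like cells, against 18.0% of aged and 20.8% of adult smooth muscle-like cells. At 4000 UMIs per cell the pericyte-like shares were 88.0% in 25 aged and 71.4% in 56 adult cells. Kcnrg had 26.2 CPM (8.49 to 61.1) in aged and 24.9 CPM (12.9 to 43.6) in adult pericyte-like cells on 5 and 12 UMIs. In the aged library that interval overlapped the one of blood endothelial-like cells (4.64 to 11.5 CPM).

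The accessory subunit Kcne4 and the acid-sensitive leak channel Kcnk3 (TASK-1) were shared by the mural classes. Kcne4 had 309 CPM in aged and 156 CPM in adult pericyte-like cells, and 187 CPM in aged and 146 CPM in adult smooth muscle-like cells. In the endothelial-like classes it had 0 UMIs in the aged library and 1 UMI per class in the adult library, and in fibroblast-like cells 19.2 CPM in the aged and 14.2 CPM in the adult library. Kcnk3 had 230 CPM in aged and 118 CPM in adult pericyte-like cells and 72.8 and 80.5 CPM in aged and adult smooth muscle-like cells. Blood endothelial-like cells had 0.357 CPM of Kcnk3 in the aged and 0.412 CPM in the adult library, and fibroblast-like cells had 0.0884 and 0.186 CPM. Lymphatic endothelial-like cells had 0 UMIs in the aged library, which allows up to 6.68 CPM, and 1 UMI in the adult library. In adult cells the intervals of pericyte-like and smooth muscle-like Kcne4 overlapped (123 to 195 and 130 to 164 CPM).

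**Figure D2:**
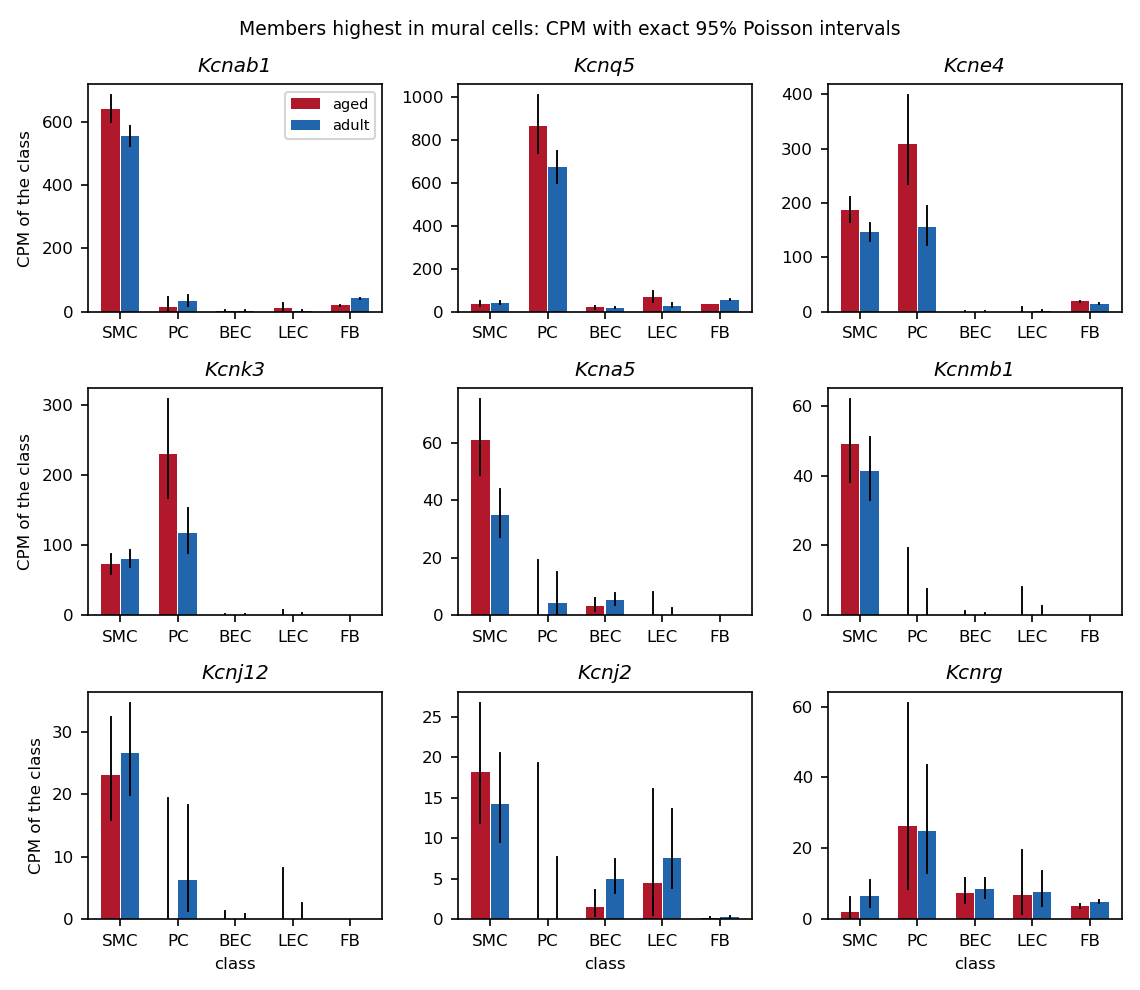
CPM of 9 members (1 panel each, linear axis from 0) in smooth muscle-like (SMC), pericyte-like (PC), blood endothelial-like (BEC), lymphatic endothelial-like (LEC) and fibroblast-like (FB) cells, aged in red and adult in blue, with exact 95% Poisson intervals. Kcnab1, Kcna5, Kcnmb1, Kcnj12 and Kcnj2 are highest in SMC, Kcnq5 and Kcnrg in PC, and Kcne4 and Kcnk3 are found mainly in these 2 classes.

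Blood endothelial-like cells led Kcnn4 and Kcnk6. Kcnn4 encodes the intermediate-conductance calcium-activated channel (KCa3.1), known in endothelium for hyperpolarisation after calcium entry. It had 100 UMIs (35.7 CPM, 29 to 43.4) in aged and 87 UMIs (17.9 CPM, 14.4 to 22.1) in adult blood endothelial-like cells. It had at most 1 UMI per library in smooth muscle-like, pericyte-like and lymphatic endothelial-like cells, where 0 UMIs allow up to 15.7 CPM in aged pericyte-like and 6.68 CPM in aged lymphatic endothelial-like cells, and 0.221 CPM in aged and 0.171 CPM in adult fibroblast-like cells. The arterial-like group, led by Gja5 and Sema3g, had 99.1 CPM in 41 aged and 89.3 CPM in 64 adult cells. The venous-like group, led by Vwf and Olr1, had 36.6 CPM in 294 aged and 13.6 CPM in 367 adult cells, and the capillary-like group, led by Rbp7, had 0 UMIs in 56 aged and 6 UMIs in 148 adult cells. The leak channel gene Kcnk6 had 13.2 CPM in aged and 10.7 CPM in adult blood endothelial-like cells, against 5.48 and 4.37 CPM in aged and adult fibroblast-like cells. With cells thinned to equal depth Kcnk6 lost its lead and Kcnn4 kept it.

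Kcnc2, a pore of the Kv3 family known for fast repolarisation in neurons, was also highest in blood endothelial-like cells, at 166 CPM (151 to 181) in aged and 179 CPM (167 to 191) in adult cells. Fibroblast-like cells held 51.0 CPM in the aged and 114 CPM in the adult library, so the 2-fold margin was met in the aged library alone. Kcnh1, a pore of the ether-a-go-go family, had 28.9 CPM in aged and 26.6 CPM in adult blood endothelial-like cells and 36.6 and 20.8 CPM in aged and adult pericyte-like cells, the last on 7 and 10 UMIs.

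The blood endothelial groups carried different members. The venous-like group held Kcnc2 at 196 CPM in aged and 284 CPM in adult cells. It also held Kcnt2, a sodium-activated pore, at 240 CPM in both libraries, against 0 UMIs in aged and 3 UMIs in adult capillary-like cells. The capillary-like group held Kcna5 at 21.2 CPM in aged and 18.9 CPM in adult cells and had 3.02 and 2.99 CPM of Kcnc2. A further group, led by Tmem252 and Mctp1, held Kcnc2 at 309 CPM in 33 aged and 63.1 CPM in 48 adult cells, with 0 UMIs of Kcnt2 and Kcnn4. With depth again not held equal, a Kcnt2 UMI was present in 47.5% of aged blood endothelial-like cells with a Kcnc2 UMI and in 38.1% of those without, and in 56.7% of adult cells with and 25.6% of those without. For Kcnn4 and Kcnc2, a Kcnc2 UMI was present in 27.9% of aged cells with a Kcnn4 UMI and 28.9% of those without, and in 27.1% of adult cells with and 39.4% of those without. All these shares are over the whole class and mix the blood endothelial groups, which differ in Kcnc2, Kcnt2 and Kcnn4. Whether these genes go together within a group was not tested.

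Lymphatic endothelial-like cells led Kcnn3 and Kcng2. Kcnn3 encodes the small-conductance calcium-activated channel SK3. It had 18 UMIs (40.1 CPM, 23.8 to 63.4) in aged and 93 UMIs (64.3 CPM, 51.9 to 78.7) in adult lymphatic endothelial-like cells, against 13.8 CPM in aged and 13.3 CPM in adult fibroblast-like cells. The fibroblast-like level is taken over the whole class, and the fibroblast group led by Ltc4s and Susd4 stood higher, at 86.0 CPM in aged and 115 CPM in adult cells. The group led by Ccl21a, Reln and Lyve1, markers of lymphatic capillaries, held 17 of the 18 aged and 93 of the 93 adult UMIs, at 192 CPM in 21 aged and 170 CPM in 101 adult cells. In blood endothelium Kcnn3 was found in the arterial-like group, at 30.8 CPM in aged and 50.1 CPM in adult cells, in the capillary-like group at 9.07 CPM in aged and 21.9 CPM in adult cells, and in the venous-like group at 0 UMIs in aged and 4 UMIs in adult cells.

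Kcng2, a voltage-gated subunit that is silent on its own and modifies Kv2 pores, had 4 UMIs (8.91 CPM, 2.43 to 22.8) in aged and 46 UMIs (31.8 CPM, 23.3 to 42.4) in adult lymphatic endothelial-like cells. All of them lay in the capillary lymphatic-like group, at 45.2 CPM in aged and 84.2 CPM in adult cells. On 4 aged UMIs its lead is not firm, and with cells thinned to equal depth it was lost. The acid- and volume-sensitive leak channel Kcnk5 had 24.5 CPM in aged and 54.6 CPM in adult lymphatic endothelial-like cells and 47.3 and 53.1 CPM in aged and adult fibroblast-like cells. Within lymphatic endothelium it was found in the capillary-like group (67.7 CPM in aged and 89.7 CPM in adult cells) and in the group led by Ptprt and Lcn2 (42.8 and 58.4 CPM).

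The other lymphatic groups carried other members. The group led by Spp1 and Coch held 79.9 CPM of Kcnt2 in 23 aged and 228 CPM in 73 adult cells, with 0 UMIs of Kcnn3 and Kcng2. In this group 0 UMIs allow up to 26.6 CPM in aged and 7.77 CPM in adult cells. The group led by Ptprt and Lcn2 held 214 CPM of Kcnt2 in 19 aged and 133 CPM in 52 adult cells. The group led by Tmem108 and Nts held 130 CPM of Kcnq5 in 20 aged and 72.5 CPM in 16 adult cells, on 17 and 10 UMIs. No lymphatic group held a Kcnmb1 or Kcnj12 UMI. In the aged lymphatic groups 0 UMIs allow up to 22.9 to 33.9 CPM, about or above the Kcnj12 level of aged smooth muscle-like cells. The aged groups therefore cannot show that Kcnj12 is lower there.

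**Figure D3:**
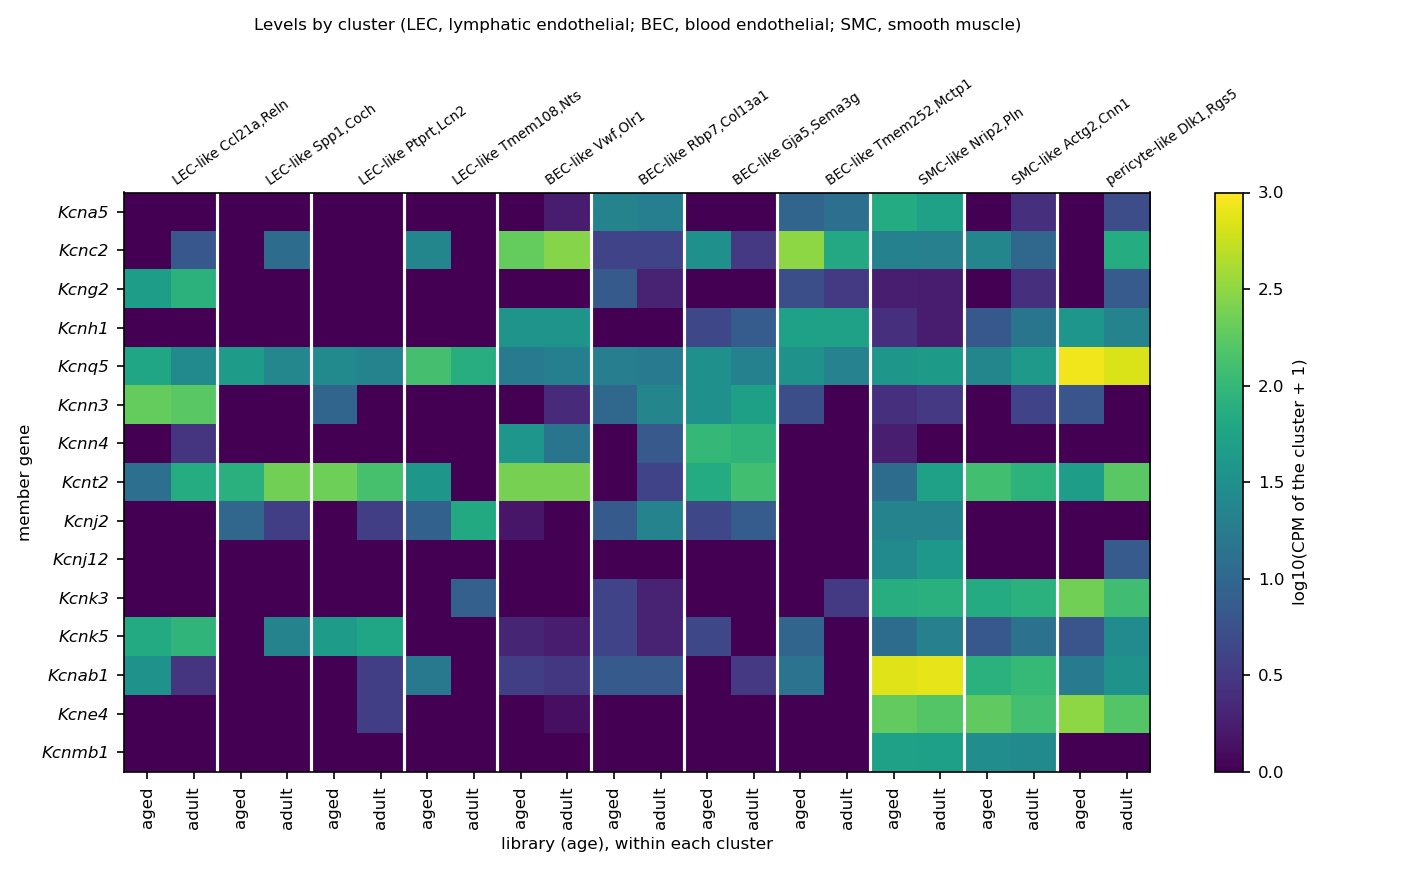
Level of 15 members (rows) in the groups found by clustering within the endothelial-like and mural classes (columns, aged left of adult), as log10 of group CPM plus 1 on a colour scale. Kcnn3 and Kcng2 are bright in the Ccl21a,Reln group, Kcnc2, Kcnt2 and Kcnh1 in the Vwf,Olr1 group, Kcnn4 in the Gja5,Sema3g group and Kcnab1 in the Nrip2,Pln group of both libraries.

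Fibroblast-like cells led no member, but several were found across them. Kcnt2 had 80.2 CPM in aged and 138 CPM in adult fibroblast-like cells, against 174 and 158 CPM in aged and adult blood endothelial-like cells. Over the 24 fibroblast groups with 10 or more cells in a library, not all the same groups in both and 3 of them kept apart from the class, its level ranged from 17.7 to 276 CPM in the aged and from 28.2 to 442 CPM in the adult library, highest in the group led by Acsbg1, Fmod and Col11a1. The same group held the highest fibroblast level of Kcnab1, at 148 CPM in the aged and 268 CPM in the adult library, where the medians over groups were 15.2 and 24.0 CPM. Kcns3, a silent subunit of Kv2 pores, had 7.93 CPM in aged and 13.9 CPM in adult fibroblast-like cells, against 10.5 and 18.7 CPM in aged and adult pericyte-like cells on 2 and 9 UMIs. Kcnip4, an interacting protein of Kv4 pores, had 3.13 CPM in aged and 6.37 CPM in adult fibroblast-like cells and 20.9 and 12.5 CPM in aged and adult pericyte-like cells on 4 and 6 UMIs. Kcnn3 was uneven too, reaching 86.0 CPM in the aged and 115 CPM in the adult cells of the group led by Ltc4s and Susd4, with medians of 7.87 and 4.20 CPM. The adult value rests on 18 UMIs in 11 cells.

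Kcnq1ot1, the imprinted antisense RNA of Kcnq1, was found in every class, at 70.7 to 115 CPM in the aged and at 78.5 to 137 CPM in the adult library. Kcnq1 itself had 21 UMIs in aged and 58 UMIs in adult blood endothelial-like cells and 0 UMIs in mural cells, where Kcnq1ot1 had 101 and 196 UMIs in aged and adult smooth muscle-like cells. Whether the counting used strand is not given in the sources used here. In the GENCODE vM21 annotation 8 of the 22 measured members share exon sequence with a gene on the other strand (among them Kcnq5, Kcnab1, Kcnt2, Kcnq1ot1, Kcnk3, Kcnip4 and Kcng2), so their counts may hold reads of both. None of the 22 shares exon sequence with a gene on its own strand.

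**Figure D4:**
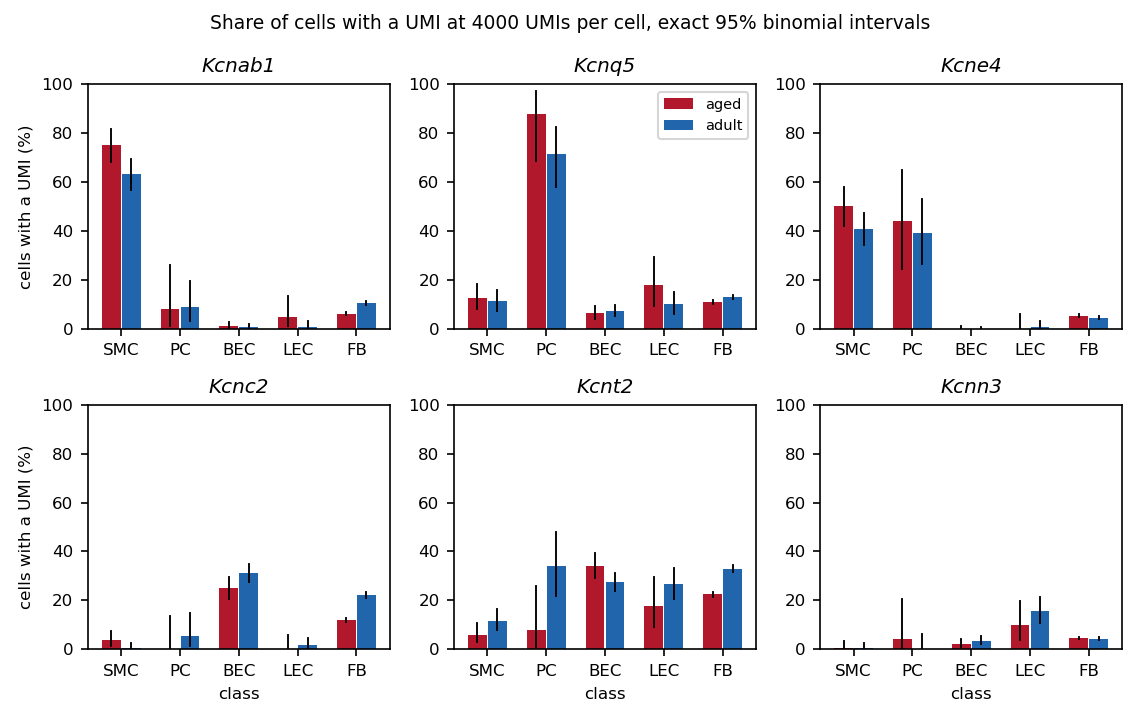
Share of cells with at least 1 UMI after each cell was thinned to 4000 UMIs, for 6 members (1 panel each) by class (abbreviated as in the plot of mural members), aged in red and adult in blue, with exact 95% binomial intervals. Kcnab1 is found in 75.3% of aged and 63.3% of adult SMC and Kcnq5 in 88.0% of aged and 71.4% of adult PC, while Kcnt2 has a bar in every class.

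Of the 63 members under the 5 CPM mean, the 8 with the highest level in a single class were named. Kcnn2, the SK2 channel, had 16.8 CPM in aged and 14.7 CPM in adult smooth muscle-like cells, with 0 UMIs in blood endothelial-like cells. Kcnh2, the ERG1 channel of cardiac repolarisation, had 13 UMIs in aged and 29 UMIs in adult smooth muscle-like cells and 0 UMIs in pericyte-like and blood endothelial-like cells. Kcnd3, a Kv4 pore of transient currents, had 6 UMIs (4.20 CPM) in aged and 52 UMIs (25.5 CPM) in adult smooth muscle-like cells. Kcna2, a Kv1 pore, had 10 UMIs in aged and 23 UMIs in adult smooth muscle-like cells. Kcnip3, an interacting protein of Kv4 pores, had 10.5 CPM in aged and 12.5 CPM in adult pericyte-like cells on 2 and 6 UMIs. Kcnq1, the KvLQT1 pore, had 7.49 CPM in aged and 12.0 CPM in adult blood endothelial-like cells. Kcnk2, a stretch-sensitive leak channel, had 10.5 CPM in aged and 10.4 CPM in adult pericyte-like cells on 2 and 5 UMIs, and Kcnt1, a sodium-activated pore, had 14 UMIs in aged and 22 UMIs in adult smooth muscle-like cells with 0 UMIs in pericyte-like and endothelial-like cells.

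A list of 27 partners held accessory proteins of potassium channels, pacemaker channels, sodium-potassium pump subunits and chloride cotransporters that carry potassium. Of these, 13 passed the 5 CPM mean. Smooth muscle-like cells led 1 (background 2.12% of 10984 measured genes), pericyte-like cells 2 (2.03%) and blood endothelial-like cells 1 (1.84%). Lymphatic endothelial-like cells led 0 (1.87%) and fibroblast-like cells 0 (3.31%). Abcc9, the sulfonylurea receptor that pairs with the excluded pore Kcnj8, had 1235 CPM in aged and 817 CPM in adult pericyte-like cells, against 95.2 and 168 CPM in aged and adult smooth muscle-like cells. Slc12a2, a sodium-potassium-chloride cotransporter, had 356 CPM in aged and 301 CPM in adult pericyte-like cells, and Slc12a7, a potassium-chloride cotransporter, had 78.2 CPM in aged and 68.8 CPM in adult blood endothelial-like cells.

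The age comparison asked how the aged library differed from the adult one within each class that held at least 50 cells of each, which left out pericyte-like cells. A member was measured at 100 or more UMIs of the class over both libraries, and higher or lower meant 1.5-fold or more apart after adding 1 CPM to both levels. In smooth muscle-like cells 10 members were measured, of which 2 were higher (background 3.84% of 5233 genes) and 1 was lower (7.93%). In blood endothelial-like cells 1 of 7 was higher (4.65% of 7511 genes) and 0 were lower (4.99%). In lymphatic endothelial-like cells 0 of 3 were higher (6.79% of 3403 genes) and 1 was lower (6.91%). In fibroblast-like cells 3 of 28 were higher (2.22% of 13990 genes) and 7 were lower (6.3%). The median log2 ratio of the members was 0.23 in smooth muscle-like, 0.12 in blood endothelial-like, -0.45 in lymphatic endothelial-like and -0.21 in fibroblast-like cells, beside -0.02, 0.03, 0.04 and -0.08 over all genes measured.

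In smooth muscle-like cells Kcna5 was among the members higher in the aged library, and the lower one was Kcnt2. Kcna5 was 1.75-fold (1.26 to 2.42) its adult level, at 60.9 CPM in aged and 34.9 CPM in adult cells. It stood at 1.83-fold (1.03 to 3.35) in female and 1.91-fold (1.18 to 3.12) in male cells. The Nrip2 group, which held nearly all of it, made up 179 of the 205 aged and 180 of the 255 adult smooth muscle-like cells, and within that group Kcna5 had 69.3 CPM in aged and 50.6 CPM in adult cells, under 1.5-fold apart. Its log2 ratio of 0.79 was 0.53 with all cells as deposited, 0.44 with cells thinned to equal depth and 0.40 with the groups weighted equally, all under the 1.5-fold limit. Kcnab1 at 1.16-fold (1.06 to 1.26) and Kcne4 at 1.28-fold (1.08 to 1.51) also had intervals above 1, both under the 1.5-fold limit. Of the 12 partners measured in this class 0 were higher (background 3.84% of 5233 genes) and 1, Abcc9, was lower (7.93%). In fibroblast-like cells 0 of 19 partners were higher (2.22% of 13990 genes) and 3 were lower (6.3%).

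Kcnt2 was 0.382-fold (0.253 to 0.561) in aged smooth muscle-like cells, at 34 UMIs and 23.8 CPM against 127 UMIs and 62.4 CPM in the adult library. It was 0.301-fold (0.111 to 0.705) in female and 0.664-fold (0.384 to 1.12) in male cells, and the male interval holds no change. The lower level was seen in the Nrip2 group (10.4 CPM in aged, 51.4 CPM in adult cells) and not in the Actg2 group (121 CPM in aged, 85.6 CPM in adult cells). With both groups weighted equally the log2 ratio was -0.06, against -1.35 over the class, and the difference was lost. Fibroblast-like cells held more Kcnt2 than either library's smooth muscle-like cells and were themselves lower in the aged library. The lymphatic endothelial markers summed to 32.2 CPM in aged and 226 CPM in adult smooth muscle-like cells, and the fibroblast markers to 6300 and 5299 CPM. The part of other cells' RNA in this difference was not tested.

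Kcnn4 was 1.99-fold (1.48 to 2.68) its adult level in aged blood endothelial-like cells, with 1.43-fold (0.938 to 2.15) in female and 3.26-fold (1.83 to 6.01) in male cells. A difference was seen in the venous-like group, at 36.6 CPM in aged and 13.6 CPM in adult cells, and was small in the arterial-like group, at 99.1 and 89.3 CPM. The mix of groups differed as well. The capillary-like group, which had few Kcnn4 UMIs, made up 56 of the 424 aged and 148 of the 627 adult cells of the class. The part of this mix in the class difference was not tested. With the groups weighted equally the log2 ratio was 0.31, against 0.95 over the class. The other 6 measured members of this class were under 1.5-fold apart.

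Kcnn3 was 0.624-fold (0.354 to 1.04) in aged lymphatic endothelial-like cells, an interval that holds no change. With the groups of the class weighted equally its log2 ratio was 0.23, the other direction. The capillary-like group that carried it was 21 of the 83 aged and 101 of the 242 adult cells, and within that group Kcnn3 had 192 CPM in aged and 170 CPM in adult cells. The intervals of these levels overlapped (112 to 307 CPM in aged and 137 to 209 CPM in adult cells), and the number of lymphatic endothelial-like cells can be set by the sort.

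In fibroblast-like cells the members lower in the aged library were Kcnc2, Kcnab1, Kcnip4, Kcnt2, Kcns3, Kcnd2 and Kcnq5. Kcnc2 was 0.447-fold (0.429 to 0.465) its adult level, at 51.0 CPM in aged and 114 CPM in adult cells, and Kcnab1 was 0.473-fold (0.443 to 0.504), at 19.8 and 41.9 CPM. Both were lower in female and in male cells: Kcnc2 was 0.462-fold in female and 0.446-fold in male cells, and Kcnab1 0.388-fold and 0.551-fold. Kcnt2 was 0.583-fold (0.564 to 0.602) and Kcns3 0.569-fold (0.511 to 0.633). Kcnq5 was 0.659-fold (0.626 to 0.694), with 0.561-fold in female and 0.885-fold in male cells.

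Kcnip4 and Kcnd2 had unlike ratios in female and male cells, called from Xist and Y-linked UMIs, and the difference between the sexes was not tested. Kcnip4 was 0.490-fold (0.414 to 0.579) in all cells, 0.968-fold (0.697 to 1.34) in female and 0.323-fold (0.262 to 0.398) in male cells. Kcnd2, a Kv4 pore with 38 aged and 98 adult UMIs, was 0.400-fold (0.267 to 0.587) in all cells, 0.229-fold (0.120 to 0.406) in female and 0.978-fold (0.465 to 2.08) in male cells. Cells called female were 41.9% of the called aged and 54.7% of the called adult fibroblast-like cells.

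The fibroblast members higher in the aged library were the leak channels Kcnk13 and Kcnk2 and the Kv2.2 pore Kcnb2, all at low levels. Kcnk13 was 3.75-fold (2.58 to 5.59), at 1.93 CPM in aged and 0.514 CPM in adult cells, with 6.0-fold (3.82 to 9.77) in female and 1.72-fold (0.742 to 4.32) in male cells. Kcnk13 was among the 10 leading genes of the group led by Ltc4s and Susd4, which held 171 aged and 11 adult cells. Kcnb2 was 2.08-fold (1.66 to 2.63), at 3.39 CPM in aged and 1.63 CPM in adult cells. Kcnk2 was 1.91-fold (1.55 to 2.36), at 3.91 and 2.04 CPM, with 1.12-fold (0.745 to 1.68) in female and 2.27-fold (1.72 to 3.03) in male cells.

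The fibroblast groups were filled unevenly by the libraries. The group led by Gm56730, for example, held 802 aged and 22 adult cells, and that led by Prg4 and Oxtr 9 aged and 265 adult cells. The highest Kcnc2 level in the adult library, 235 CPM, was in that Prg4 group, and the highest Kcnt2 and Kcnab1 levels were in a group of 75 aged and 250 adult cells. The fibroblast differences between ages were taken over all these groups, and with groups weighted equally 1 member was higher and 4 were lower. The share over all genes with that weighting is not given here. Equal weighting leaves the mix within a group as it is, and some groups had few cells of 1 library. A change of level within a type of fibroblast and a change in the mix of types therefore cannot be told apart, also for members that kept their 1.5-fold difference.

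**Figure D5:**
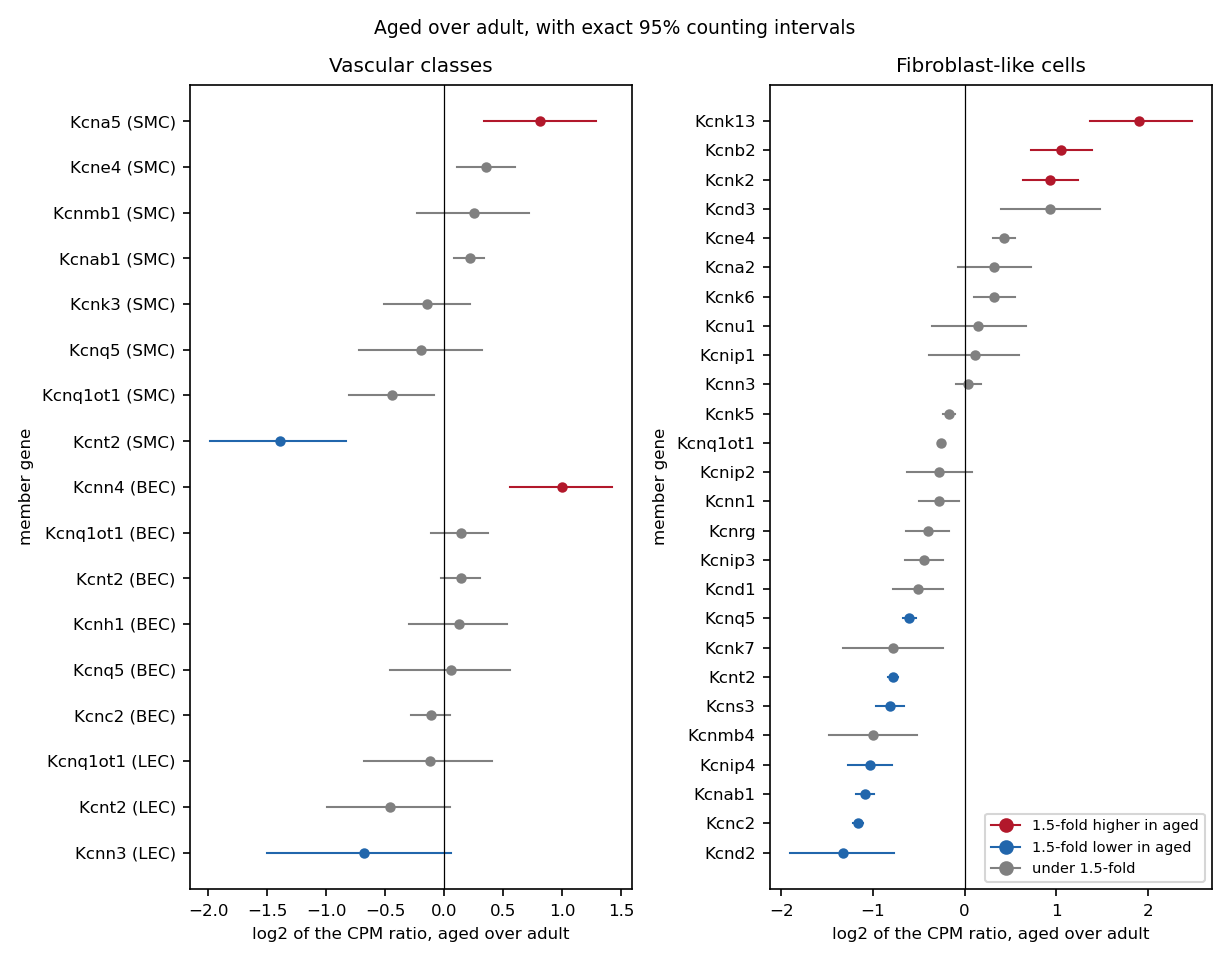
Log2 of the CPM ratio of aged over adult cells, without added CPM, for members measured in the vascular classes (left; SMC, BEC and LEC as above) and in fibroblast-like cells (right), with exact 95% counting intervals. Red and blue mark members 1.5-fold or more higher or lower in the aged library after 1 CPM was added, and of these only Kcnn3 has an interval across 0.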

How the data were processed

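Single-cell RNA libraries of sorted cells were measured, 1 pooled library per age. The deposited tables hold natural log values, that is the natural log of 1 plus a cell's UMIs scaled to 10000, as the values show. Seurat 5.0.3 and the builds GRCm39 and mm10 are named without a role in the submitters' processing notes, and aligner and counting method: not given in the sources used here. Undoing the log gave whole UMIs in 100% of cells within 0.01. The aged rows were named by their position: over the shared cells, 15474 of 15551 rows tested correlated best with the adult row of equal rank. Aged-table cells with a barcode of the adult table were left out.

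Cells were clustered (2000 variable genes without Kcn genes, 30 components, 15 neighbours, Leiden resolution 2). Groups were named from at least 3 markers, each in 10% of cells, with a mean log2 fold of the markers of at least 0.5 over all other cells. The groups of the fibroblast-like class did not reach 0.5. They were named by a weaker rule: at least 3 fibroblast markers, each in 50% of cells, and no other class clearly marked. The classes are therefore rebuilt and may differ from the study's. Scrublet marked 0 adult and 1 aged cell, so its calls were not used and doublets remain. UMIs were summed per class and library into CPM with exact Poisson intervals, ratios have exact conditional binomial intervals and shares exact Clopper-Pearson intervals, and a count of 0 allows up to 3 counts. Thinning to 4000 UMIs left out 324 aged and 330 adult shallower cells. The scripts were tested on simulated data.

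The members and lists were chosen with earlier results of these data known. Named were members with a mean of at least 5 CPM, those 1.5-fold or more apart between ages, and the 8 others with the highest level in 1 class. Some genes that the rule names are counted but not reported here. Other groups' genes were named to identify clusters. Python 3.11.15, numpy 2.4.6, scipy 1.17.1, pandas 2.3.3, scikit-learn 1.9.0, igraph 0.11.9, leidenalg 0.10.2, scanpy 1.11.5 and matplotlib 3.10.9 were used.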

Additional observations from a re-analysis of the deposited data

Results flagged for a closer look

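Cells outside the 5 classes held some members above the highest level of any class in either library, taking both libraries of the group together, each on at least 10 UMIs. In an unnamed group of 77 cells led by Egln3, Clca3a2 and Gsta3, Kcne4 had 357 CPM, Kcnt2 261 CPM, Kcnb2 40.8 CPM and Kcnh1 37.5 CPM, beside highest class levels of 309, 174, 6.38 and 36.6 CPM. By library, Kcne4 had 340 CPM in the aged and 365 CPM in the adult cells of that group, Kcnt2 had 71.0 and 351 CPM, and Kcnh1 had 106 CPM on 21 UMIs in the aged and 4.81 CPM on 2 UMIs in the adult cells, so its value rests on the aged library. In 39 cells led by Cd74, H2-Ea and H2-Eb1, genes of antigen presentation, Kcnt2 had 568 CPM. In 10 aged cells led by Dcpp1, Dcpp2 and Dcpp3, Kcne1, a subunit of the Kcnq1 channel, had 254 CPM on 100 UMIs, Kcnk1 had 40.6 CPM on 16 UMIs and Kcnn4 had 91.4 CPM on 36 UMIs.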

How the results depend on the processing

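No paired analysis was possible because each age has 1 library. The Scrublet calls could not be used as an alternative; leaving out the 6% of cells with the highest scores and including the fibroblast groups kept apart were chosen after seeing the data. Of the 15 age differences counted, 14 kept their direction in all 14 alternatives. Adding 0.1 or 5 CPM or needing 50 or 200 UMIs cannot change a direction, so these alternatives are no check of it. Some of the kept directions came close to no change. The log2 ratio reached -0.01 for Kcnd2 and -0.03 for Kcnip4 in fibroblast-like cells and -0.06 for Kcnt2 in smooth muscle-like cells. Kcnn3 in lymphatic endothelial-like cells turned to 0.23 with clusters weighted equally. The cause was not tested for the other changes below, except that thinning, the sex splits and the UMI minimum change how many genes are measured. In male cells Kcna5 at 1.91-fold (41 aged and 33 adult UMIs) and Kcnn4 at 3.26-fold (37 and 19 UMIs) fell out only by the 100-UMI minimum.

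Members led by smooth muscle-like cells were 8 at resolution 1, where pericyte-like cells had no cluster, 9 at a mean of 2 CPM and 1 at a mean of 20 CPM. At 20 CPM 1 was led by pericyte-like and 0 by either endothelial-like class. With a 4-fold margin 1 each was led by the pericyte-like and both endothelial-like classes. Thinned, 4 were led by pericyte-like and 1 by each endothelial-like class, with Kcnk6 and Kcng2 lost. With all cells as deposited 0 were led by blood endothelial-like cells. The shares over all genes under these changed rules are not given, here or in the next paragraph. The counts therefore describe the members only and cannot be set against a background.

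In aged smooth muscle-like cells 1 member was higher at resolution 1, without the adult cells of the adult table alone, with 5 CPM added and in female cells, and 0 were higher with all cells as deposited, thinned, at 200 UMIs, in male cells and with clusters weighted equally. There 0 were lower thinned, at 200 UMIs, in female cells and with clusters weighted equally, and 2 at 50 UMIs. In blood endothelial-like cells 0 were higher thinned, at 200 UMIs and in male cells, and 2 were lower at 50 UMIs. In lymphatic endothelial-like cells 1 was higher with all cells as deposited and at 50 UMIs, 0 were lower with all cells as deposited, at 200 UMIs, in either sex and with clusters weighted equally, and 3 were lower at 50 UMIs. In fibroblast-like cells 0 were higher with 5 CPM added, and 1 in female cells and with clusters weighted equally; 2 were lower with all cells as deposited, 3 with 5 CPM added, and 4 in female cells and with clusters weighted equally.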
